A study of Homo sapiens with 24 samples.

Results

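HepaRG cells that received beta-catenin siRNA and Wnt3a were compared with HepaRG cells that received control siRNA and Wnt3a. The arrays were chosen by their labels alone, 3 per group, which makes 6 of the 24 arrays of the series. HepaRG is a human hepatocellular carcinoma line whose cells can turn into hepatocyte-like or bile duct-like cells. The series holds 8 conditions of 3 independent cultures each: no transfection, control siRNA, beta-catenin siRNA and FZD8_CRD, a soluble Wnt-binding domain, each with and without Wnt3a. It was made to take apart the gene networks that Wnt3a acts on, and the knockdown asks which transcripts need beta-catenin while the ligand is present.

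In the knockdown group, cells were transfected in suspension with 80 pmol of an siRNA against beta-catenin, then kept with mouse recombinant Wnt3a at 200 ng/ml for 72 h. The control group had 80 pmol of a negative control siRNA and the same Wnt3a at 200 ng/ml for 72 h. Both groups had serum-free medium with albumin during the Wnt3a treatment, and neither had FZD8_CRD. The methods name a single beta-catenin siRNA and a control siRNA from another supplier, so on these arrays effects of that siRNA on other transcripts cannot be told apart from loss of beta-catenin. All cultures came from a single cell line.

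Beta-catenin, the product of CTNNB1, ties cadherins to the cytoskeleton at adherens junctions and also carries the canonical Wnt signal. Without a ligand, a destruction complex around AXIN1 marks it for breakdown; with a ligand it builds up, enters the nucleus and acts with TCF and LEF factors. Its target genes include inhibitors of the pathway itself, such as AXIN2, and in the liver it sets the gene programme of hepatocytes around the central vein.

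Each array gave the fluorescence intensity of 50683 probes, of which 24643 genes, each by its brightest probe, could be tested. Of these, 15997 have a RefSeq symbol. On the 6 arrays, between 58.3% and 66.5% of spots were well above background by the scanner software. Signals are given as log2 of the intensity over the 75th percentile of the same array, so 0 marks that percentile and dim probes are negative, down to a floor of -6.13. A change is the mean of the knockdown arrays minus the mean of the control arrays on this scale. A gene was called, and is said to have risen or fallen, when its change had an adjusted p under 0.05 in limma. The number of arrays limits the precision, and signals near background are the least precise.

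CTNNB1 itself had signals of 3.39, 3.62 and 3.67 on the control arrays and 0.33, 0.52 and 0.77 on the knockdown arrays, for replicates 1, 2 and 3. The groups lay far apart, and the probe was still well above background on all 6 arrays. CTNNB1 fell by 3.02 on the log2 scale (SE 0.17, 3 against 3 arrays, adjusted p = 7.75e-10), a signal 8.10-fold lower. The fall was of like size in the 3 pairs of arrays that share a replicate number, at -3.06, -3.09 and -2.90. No array of either group had a CTNNB1 signal in the range of the other.

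Of the 24643 genes tested, 2608 (10.6%) were called, 1006 (4.08%) of them higher and 1602 (6.50%) lower after the knockdown. The change had the same sign in all 3 pairs for 2602 of the 2608. These pairs are the arrays that gave the calls, so this is no separate support. The larger changes were mostly falls, and 455 genes were called with a signal at least 2-fold lower. At 8-fold, 13 genes were called lower and 4 higher. The median change was -0.67 among genes called lower and 0.49 among genes called higher, against -0.01 over all genes tested.

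The split between rises and falls rests on the scale. Scaled to 7 spike-in RNAs instead, the median change of all genes was -0.22, and the calls were 39 higher and 623 lower, so that lower calls made up 94.1% in place of 61.4%. The spike-ins themselves varied between arrays of a group, with an SD of 0.27 in the control and 0.17 in the knockdown group, and their group means differed by 0.15. All changes below are on the 75th percentile scale, so a shared shift of all transcripts would not show in them.

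Single cultures also moved the count. Without replicate 1 of every condition 918 genes were called, without replicate 2 the count was 588, and 888 and 584 of these were among the 2608. Without the knockdown array of replicate 2 alone it was 1684, of which 1664 were among the 2608. All 2608 changes kept their sign in each of these omissions.

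**Figure D1:**
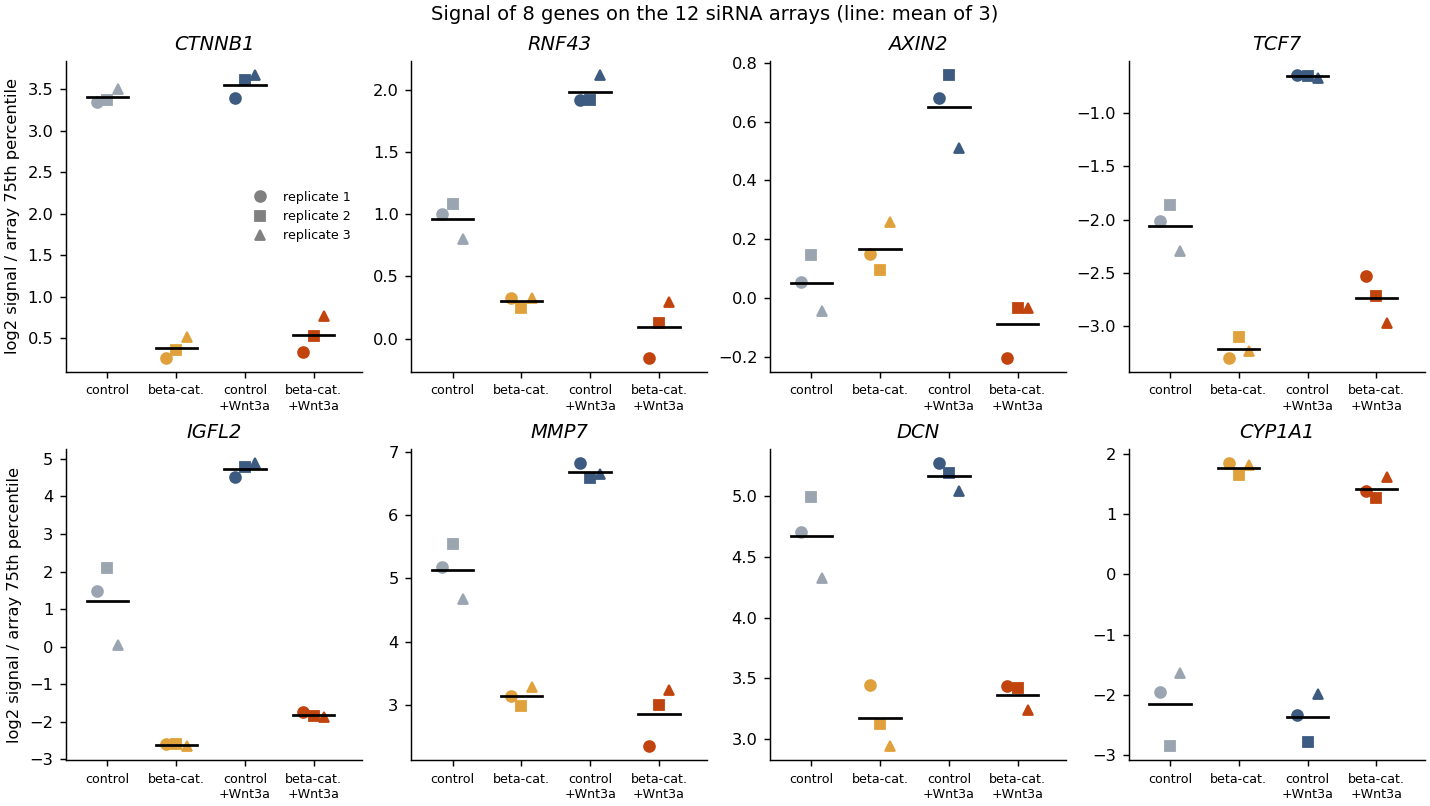
Signal (log2 over the 75th percentile of the array) of 8 genes on the 12 siRNA arrays, without Wnt3a (left pair of columns) and with it (right pair); each marker is 1 array, its shape the replicate number, and each line the mean of 3. CTNNB1 is low in both knockdown groups, IGFL2 goes from between 4.51 and 4.88 to between -1.87 and -1.73 with Wnt3a, and CYP1A1 moves the other way.

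Among genes well above background on all 6 arrays, the largest falls were those of the IGFL family, genes for small secreted proteins built like insulin-like growth factors. IGFL2 had signals of 4.51, 4.79 and 4.88 on the control arrays and -1.73, -1.83 and -1.87 on the knockdown arrays. Every knockdown array lay under every control array by over 6 log2 units. IGFL2 fell by 6.54 (SE 0.51, adjusted p = 6.11e-08, lower in 3 of 3 pairs), a 92.8-fold lower signal. IGFL3 went from 3.28, 3.39 and 2.92 to -2.52, -2.72 and -3.03, a fall in signal of 62.0-fold (adjusted p = 3.43e-09, lower in 3 of 3 pairs). IGFL1 went from 0.53, 1.01 and 0.67 to -4.07, -4.50 and -3.80, or 29.0-fold lower (adjusted p = 3.30e-05, lower in 3 of 3 pairs). With normexp, a background model fitted to the spots, the change of IGFL3 was -5.23 and that of IGFL1 was -3.65; in the authors' processed values that of IGFL1 was of like size to the change given here but was not called (adjusted p = 0.169). The cultures were measured in bulk, so fewer cells of a type and less RNA per cell cannot be told apart for these or any other genes.

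MMP7, the gene of the protease matrilysin and a textbook target of beta-catenin, came next among protein-coding genes detected on all 6 arrays. Its signals were 6.82, 6.58 and 6.64 on the control arrays and 2.36, 3.00 and 3.24 on the knockdown arrays. MMP7 fell by 3.81 (SE 0.27, adjusted p = 1.78e-08, lower in 3 of 3 pairs), 14.1-fold, with the largest fall in pair 1 at -4.45.

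The promoters of these 4 genes are shown because these genes fell furthest among protein-coding genes detected on all 6 arrays and TCF and LEF factors bind DNA at a short core word. Capitals mark the words CTTTGAA and CTTTGAT, searched on both strands, where they read TTCAAAG and ATCAAAG. The sequences are from RefSeq on GRCh38.p14, run from 250 bases before to 50 bases after each gene's start, and read 5′ to 3′ along the gene. They cover chr19:46229492-46229791 (+) for IGFL1, chr19:46147988-46148287 (+) for IGFL2, chr19:46124639-46124938 (-) for IGFL3 and chr11:102530698-102530997 (-) for MMP7.
IGFL1: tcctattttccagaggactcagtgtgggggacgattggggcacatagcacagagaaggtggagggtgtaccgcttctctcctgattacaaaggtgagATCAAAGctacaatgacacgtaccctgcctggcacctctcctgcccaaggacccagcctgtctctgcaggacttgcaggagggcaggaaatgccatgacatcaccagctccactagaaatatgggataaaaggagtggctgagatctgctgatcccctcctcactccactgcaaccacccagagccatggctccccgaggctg
IGFL2: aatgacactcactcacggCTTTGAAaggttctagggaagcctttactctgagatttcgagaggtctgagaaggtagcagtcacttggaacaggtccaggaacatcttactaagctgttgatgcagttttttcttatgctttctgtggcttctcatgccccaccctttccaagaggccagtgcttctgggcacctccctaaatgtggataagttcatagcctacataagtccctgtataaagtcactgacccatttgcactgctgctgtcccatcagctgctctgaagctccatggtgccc
IGFL3: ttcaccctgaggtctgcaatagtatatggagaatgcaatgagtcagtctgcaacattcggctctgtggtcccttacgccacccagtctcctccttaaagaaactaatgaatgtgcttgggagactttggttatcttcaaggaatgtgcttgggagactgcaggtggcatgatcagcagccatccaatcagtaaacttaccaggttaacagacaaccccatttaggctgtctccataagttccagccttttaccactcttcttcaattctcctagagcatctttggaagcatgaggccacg
MMP7: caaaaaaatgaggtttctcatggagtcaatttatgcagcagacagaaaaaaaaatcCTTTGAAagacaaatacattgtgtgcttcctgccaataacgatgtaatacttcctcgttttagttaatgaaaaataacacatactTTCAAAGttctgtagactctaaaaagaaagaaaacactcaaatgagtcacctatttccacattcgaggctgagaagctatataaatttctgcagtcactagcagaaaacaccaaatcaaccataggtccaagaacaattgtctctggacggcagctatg

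The promoter of MMP7 holds 2 of these words, those of IGFL1 and IGFL2 hold 1 each, and that of IGFL3 holds none. In the whole table, 6.86% of 35116 promoters of this length hold at least 1 of them. Among the 15 genes with the largest falls, 14 matched the table and 3 of their 15 promoters held a word; among the 15 largest rises, 9 genes matched and 1 of 11 promoters did. Over all genes called lower the share was 4.39% of 1459 promoters, over all called higher 5.65% of 1080, and over all genes tested 4.81% of 17805. A match is a description of the letters, and no binding was measured.

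The other falls among the 15 largest in genes well above background on all 6 arrays were of genes with varied roles. CLDN2, a pore-forming claudin of tight junctions, had signals of 0.08, -0.16 and -0.01 on the control arrays and -3.43, -3.36 and -2.99 on the knockdown arrays, 9.39-fold lower. LRRC15, a membrane protein known from fibroblasts in tumours, was 11.7-fold lower, and the long noncoding RNA LINC03033 15.5-fold lower. The groups did not overlap for any of the 3, though with normexp the changes were -2.52 for CLDN2, -2.05 for LRRC15 and -2.77 for LINC03033. PTGDS, a prostaglandin D synthase, fell by 2.93, and RGCC, a regulator of the cell cycle, fell by 2.77. The interleukin-7 receptor IL7R fell by 2.73, and SBSN, a secreted protein of epithelia, fell by 2.49. SBSN was among the least variable, at 0.29, 0.20 and 0.28 against -2.25, -2.29 and -2.16 (SE 0.11, adjusted p = 4.33e-11, lower in 3 of 3 pairs). In smooth muscle genes, the actin ACTG2 fell by 2.93 and the calponin CNN1 fell by 2.39. With normexp the changes were -2.22 for PTGDS, -2.02 for IL7R and -2.32 for ACTG2. The pseudogene POM121L1P changed by -2.51, but by -0.32 on a probe well above background on all 24 arrays, where it was not called.

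**Figure D2:**
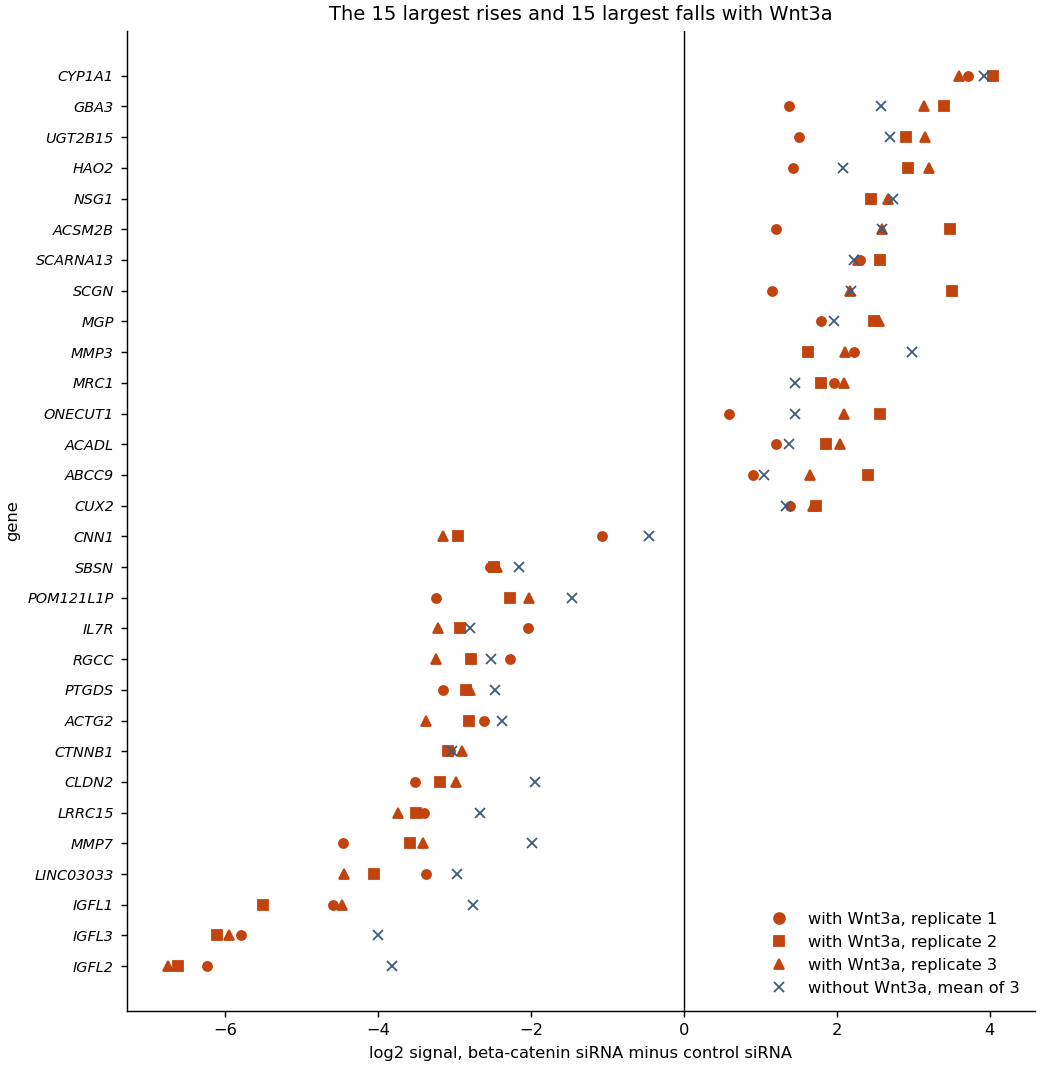
Change (log2 signal, beta-catenin siRNA minus control siRNA) of the 15 genes that rose most and the 15 that fell most with Wnt3a, among those well above background on all 6 arrays; red markers are the 3 same-numbered pairs with Wnt3a, and each blue cross is the mean change without Wnt3a. The falls of IGFL1, IGFL2 and IGFL3 lie to the left of their crosses in every pair, and pair 1 gave a smaller rise than the other pairs for GBA3, HAO2 and ONECUT1.

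Some transcripts went from detected to not detected. Of 15997 tested genes with a RefSeq symbol, 41 were well above background on all 3 control arrays and on no knockdown array. Of these, 28 were called, against 10.6% of all genes tested. Detection on the 3 control arrays was by itself enough for such a gene to be tested. Such genes are defined by a difference between the groups, so a high share of calls is built in. For such genes, and for genes below that were undetected on 1 or 2 knockdown arrays and have a fold of at least a given size, the fold is a lower bound under the scanner software's background correction, computed with each undetected value raised to the lowest signal well above background on its own array. PI15, a peptidase inhibitor, was at least 17.6-fold lower, and EPYC, a small matrix proteoglycan, at least 14.3-fold lower. CTHRC1, a secreted collagen triple helix protein, was at least 5.15-fold lower. Next came PRDM1, a transcription repressor, at least 3.60-fold, HEYL, an effector of Notch, at least 3.40-fold, and BBOX1, which makes carnitine, at least 3.25-fold. The reverse pattern held for 12 genes, of which CYP2C8, CFHR2, PLIN1, CRACD and SNORA79 were called. For these, detection on the 3 knockdown arrays was likewise enough to be tested. CYP2C8, a drug-metabolising cytochrome P450, was at least 10.0-fold higher, and CFHR2, a complement factor H relative made in liver, at least 5.86-fold higher. The calls of CFHR2, CRACD and SNORA79 were lost without the knockdown array of replicate 3. With normexp the changes were smaller than these bounds, at -1.98 for PI15, -1.90 for EPYC, -0.87 for CTHRC1, -0.62 for PRDM1 and -0.49 for BBOX1, and HEYL, CYP2C8, CFHR2, PLIN1, CRACD and SNORA79 were not called.

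CYP1A1, the cytochrome P450 that the aryl hydrocarbon receptor turns on, rose most among genes well above background on all 6 arrays. Its signals were -2.33, -2.78 and -1.98 on the control arrays and 1.39, 1.27 and 1.62 on the knockdown arrays. CYP1A1 was thus high on every knockdown array, 13.8-fold above the controls (SE 0.41 on the log2 scale, adjusted p = 4.17e-06, higher in 3 of 3 pairs). NSG1, an endosomal protein of neurons, had signals of 1.56, 1.70 and 1.69 on the control arrays, and rose in signal 5.74-fold (adjusted p = 1.72e-07, higher in 3 of 3 pairs). SCARNA13, a small Cajal body RNA, rose by 2.38, but it was not called with outlier spots kept or in the authors' values. CUX2, a homeobox factor, rose by 1.60 and ACADL, a mitochondrial acyl-CoA dehydrogenase, by 1.70. MGP, an inhibitor of calcification, rose by 2.28, and the mannose receptor MRC1 by 1.95. The protease MMP3 rose by 1.99, in the opposite direction to MMP7, a call that ended without replicate 1 or 2 of every condition. With normexp the changes were 0.78 for MRC1 and 1.14 for MMP3.

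Another set of large rises varied between cultures. GBA3, a cytosolic beta-glucosidase, had signals of -3.86, -5.14 and -4.29 on the control arrays and -2.48, -1.74 and -1.16 on the knockdown arrays. The groups did not overlap, and the rise was 1.38 in pair 1, 3.40 in pair 2 and 3.14 in pair 3. UGT2B15, which joins glucuronic acid to steroids, HAO2, a peroxisomal oxidase, ACSM2B, a mitochondrial acyl-CoA synthetase, SCGN, a calcium-binding protein, and the liver factor ONECUT1 all rose less in pair 1 than in either other pair. Their rises were 2.52 for UGT2B15 and HAO2, 2.42 for ACSM2B, 2.28 for SCGN and 1.75 for ONECUT1, while the potassium channel regulator ABCC9 rose by 1.65. Omission of the control array of replicate 2 or of the knockdown array of replicate 3 ended the call of GBA3, UGT2B15, HAO2, ACSM2B, SCGN and ONECUT1, and normexp ended it for all of these but ONECUT1. Across all alternatives the change stayed between 1.39 and 3.27 for GBA3 and between 1.23 and 2.33 for ONECUT1, and ABCC9 changed by 0.62 with normexp.

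To place these genes, 33 lists of genes grouped by role were counted. They hold 601 genes, of which 520 were tested, with 50 called higher and 106 called lower. On the spike-in scale 5 were called higher and 60 lower. Each list is given by its calls, read against the 4.08% and 6.50% over all genes, and by its median change, against -0.01. The lists were chosen with earlier results of these data known, so these shares are descriptions.

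**Figure D3:**
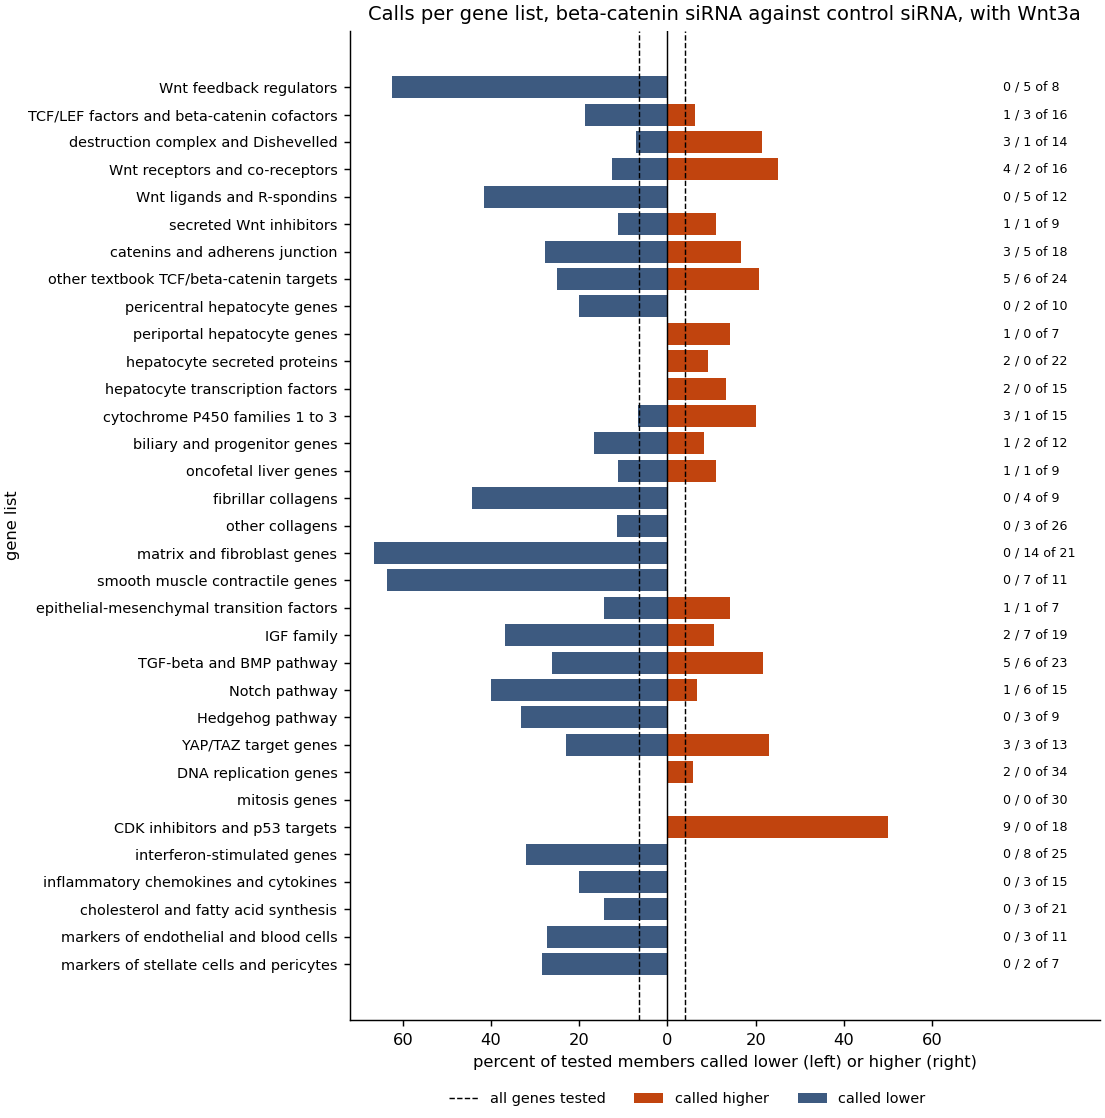
Percent of the tested members of each of 33 gene lists called lower (blue, left) or higher (red, right) with Wnt3a; dashed lines mark the 6.50% and 4.08% of all 24643 genes, and the numbers give members called higher, called lower and tested. Matrix and fibroblast genes hold 14 calls in 21, all lower, and CDK inhibitors and p53 targets 9 in 18, all higher on the 75th percentile scale and none on the spike-in scale.

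Wnt feedback regulators are genes that the pathway turns on and that restrain it. Of 8 tested, 5 were called lower and none higher, with a median of -0.67, and 2 of the 8 were called lower on the spike-in scale. RNF43, a ubiquitin ligase that removes Wnt receptors from the cell surface, had signals of 1.92, 1.92 and 2.12 on the control arrays and -0.15, 0.12 and 0.30 on the knockdown arrays. The groups did not overlap, and RNF43 fell by 1.89 (SE 0.10, adjusted p = 5.65e-10, lower in 3 of 3 pairs). AXIN2, a scaffold of the destruction complex, went from 0.68, 0.76 and 0.51 to -0.20, -0.03 and -0.03, a smaller fall of 0.74 (SE 0.10, adjusted p = 7.89e-05, lower in 3 of 3 pairs). NKD2, which binds Dishevelled, fell by 0.84 and ZNRF3, the close relative of RNF43, by 0.64. NKD1, counted among the 5, was well above background on the control arrays alone and entered the test only through them. The filter thus favoured its call, which was lost without 4 of the single arrays. The secreted inhibitor DKK1 changed by -0.44 and APCDD1, another inhibitor, by 0.86, and neither was called, except when the model held fewer conditions or, for APCDD1, with normexp.

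The nuclear partners of beta-catenin include its own targets. TCF7 went from -0.65, -0.65 and -0.67 to -2.53, -2.71 and -2.97, 4.22-fold lower (SE 0.25, adjusted p = 1.61e-05, lower in 3 of 3 pairs). LEF1 fell by 1.05, with signals of 1.53, 1.55 and 1.49 against 0.59, 0.52 and 0.30. The corepressor TLE3 fell by 0.69, and CTNNBIP1, which blocks the binding of beta-catenin to TCF factors, rose by 0.49. These 4 were the calls among 16 tested TCF and LEF factors and cofactors, whose median was -0.05. Of 14 genes of the destruction complex and the Dishevelled family, AMER1, AXIN1 and FBXW11 were called higher and APC2 lower, all by less than 0.5. Their median was 0.05 and turned to -0.16 on the spike-in scale. The calls of AMER1, AXIN1, FBXW11, APC2 and TLE3 were each lost on omission of between 3 and 5 of the 6 single arrays.

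At the cell surface, 4 of 16 Wnt receptors and co-receptors were called higher and 2 lower, with a median of -0.03 that became 0.01 with quantile normalization. On the spike-in scale none of the 16 was called, and the median was -0.24. ROR2, a receptor for WNT5A, fell by 0.62, and FZD1 rose by 0.34. The other calls, FZD3, FZD8 and LGR4 higher and FZD7 lower, were each lost without 2 or more of the single arrays. Of 12 ligands and R-spondins, 5 were called lower and none higher, and the median was -0.46. WNT6 went from 2.11, 1.99 and 2.00 to 0.51, 0.53 and 0.58 and so fell by 1.49. WNT3 fell by 0.67. WNT5B, counted among the 5, was detected on the control arrays alone and entered the test only through them, so the filter favoured its call. It was at least 1.74-fold lower, but with normexp it changed by -0.31 and was not called. WNT5A and RSPO3 were called lower by 0.72 and 0.90, calls that ended without 4 of the single arrays each. Among 9 secreted inhibitors, with a median of -0.20, SFRP2 rose by 0.98 and SOST was called lower, a call lost without 4 of the single arrays.

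Other textbook targets did not move as a group. Of 24 tested, 6 were called lower and 5 higher, with a median of -0.12. After MMP7, the falls were of EDN1, the vasoconstrictor endothelin, by 1.45, the guidance receptor EPHB3 by 1.18, TWIST1 by 0.91, BMP4 by 0.90 and PLAUR, the urokinase receptor, by 0.59, whose call was lost without 2 of the single arrays. TWIST1 was not called with the mean of its probes, and EPHB3 changed by -0.48 with normexp. CCND1, the gene of cyclin D1, often named as a target of beta-catenin, rose: its signals were 0.46, 0.61 and 0.38 on the control arrays and 1.12, 1.21 and 1.23 on the knockdown arrays. CCND1 rose by 0.71 (SE 0.13, adjusted p = 0.00104, higher in 3 of 3 pairs), and CCND2 rose by 0.56. MYC went from 3.31, 3.58 and 3.37 to 3.91, 3.92 and 3.64, a rise of 0.40. None of these rises was called on the spike-in scale, where the change of MYC was 0.19 and that of CCND1 was 0.50. The call of MYC was lost without 4 of the single arrays, among them both arrays of replicate 1.

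At adherens junctions, the other place where beta-catenin works, 5 of 18 tested genes beside it were called lower and 3 higher, with a median of -0.17. PKP3, a plakophilin of desmosomes, fell by 1.25 and VCL, the gene of vinculin, by 0.52. CDH2, N-cadherin, rose by 0.47 and CTNNA1, alpha-catenin, by 0.32, a call lost without 3 of the single arrays. NECTIN3 rose by 0.43 on its brightest probe but changed by -0.15 on its other probe, and it was not called with the mean of the 2. E-cadherin, the product of CDH1, had signals of -1.56, -1.66 and -1.49 against -3.23, -2.66 and -2.10, a change of -1.09 that was not called (adjusted p = 0.0744, lower in 3 of 3 pairs). Without the knockdown array of replicate 3 the change of CDH1 was -1.37 and called.

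Matrix and fibroblast genes had the largest share of called members of the 33 lists. The paper lists DCN, LUM, MRC2, SPARC, FN1 and FAP, among other members, as raised by Wnt3a in this series. This list was thus not chosen independently of these data, and its share of calls is a description. Of 21 tested, 14 were called lower and none higher, and the median was -1.03; on the spike-in scale 12 were called lower, with a median of -1.24. Decorin, DCN, went from 5.27, 5.19 and 5.04 to 3.44, 3.42 and 3.24, and lumican, LUM, from 3.31, 3.35 and 3.30 to 1.67, 1.71 and 1.73. Both proteoglycans thus stood well apart between the groups, with changes of -1.80 and -1.61 (SE 0.18 and 0.19, lower in 3 of 3 pairs). The collagen receptor MRC2 fell by 1.39 and SPARC, a matrix glycoprotein, by 0.97. HAPLN1, a hyaluronan link protein, was well above background on 2 of the 3 knockdown arrays and at least 10.9-fold lower, with a change of -1.71 by normexp. FN1, fibronectin, fell by 1.03 and FAP, a protease of activated fibroblasts, by 1.31, though both calls ended without replicate 1 or replicate 2 of every condition.

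Fibrillar collagens had 4 of 9 tested members called lower and none higher, with a median of -0.35. COL1A1 went from 1.65, 1.94 and 1.81 to 0.35, 0.20 and 0.45 and fell by 1.47, and COL3A1 fell by 1.20, though neither was called in the authors' values. COL1A2, well above background on 2 of the 3 knockdown arrays, was at least 3.20-fold lower, with a change of -0.60 by normexp. Among 26 other collagens, 3 were called lower and none higher: COL9A2 by 1.46, COL16A1 by 1.25, with -0.44 on its other probe, and COL6A3, which was at least 1.67-fold lower but not called with normexp. COL6A3 entered the test only through the control arrays, so the filter favoured its call. With normexp COL9A2 changed by -0.64, and its call was lost without replicate 2 of every condition. The median of these collagens was -0.13. Smooth muscle contractile genes had 7 of 11 called lower and none higher, with a median of -0.53. Besides ACTG2 and CNN1, TAGLN changed by -1.57, CNN2 by -0.73, DES by -0.61, CALD1 by -0.53 and MYLK by -0.27, with the calls of CNN2 and MYLK lost without 4 and 3 of the single arrays. ACTA2, alpha smooth muscle actin, changed by -0.16 and was not called. Of 7 factors and markers of epithelial-mesenchymal transition, VIM, the gene of the mesenchymal filament vimentin, fell by 0.84 and ESRP2, an epithelial splicing regulator, rose by 0.67, and the median was -0.25. The call of ESRP2 ended without the knockdown array of replicate 3.

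Calls were few among hepatocyte genes, and the medians of their lists differed in sign. Of 22 secreted hepatocyte proteins, 2 were called higher and none lower, the median was 0.54, and 20 of the 22 had a positive change. ALB, albumin, had signals of 6.92, 6.07 and 6.84 on the control arrays and 7.29, 7.85 and 8.25 on the knockdown arrays. The groups did not overlap, but control replicate 2 lay lowest, and the rise of 1.19 (SE 0.31, adjusted p = 0.0156, higher in 3 of 3 pairs) lost its call without either array of replicate 2 or the knockdown array of replicate 3. ORM1, an acute phase glycoprotein, rose by 1.07 and depended on the same arrays. Of 15 hepatocyte transcription factors, ONECUT1 and FOXA2 were called higher and none lower, with a median of 0.35. The call of FOXA2 was lost without 4 of the single arrays and that of ONECUT1 without 2. Neither list had its median turned by quantile normalization or by the spike-ins, which gave 0.33 for secreted proteins and 0.14 for the factors. On the spike-in scale, however, ALB, ORM1 and FOXA2 lost their calls. No secreted protein and 1 of the factors was called there.

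Among 15 cytochromes of families 1 to 3, 3 were called higher, CYP1A1 and CYP2C8 among them, and CYP2S1 lower, and the median of 0.20 became -0.01 on the spike-in scale. The call of CYP2S1 ended without each of the 6 single arrays. Pericentral hepatocyte genes, which depend on beta-catenin in liver, had 2 of 10 called lower and none higher, with a median of -0.29. These were CYP27A1, which fell by 0.69 with the call lost without 1 array, and GLUL, glutamine synthetase, which went from 4.63, 4.57 and 4.34 to 3.97, 4.18 and 4.17 and changed by -0.40. The call of GLUL was lost without 5 of the single arrays and in the authors' values. Of 7 periportal genes 1 was called higher and none lower, and the median of 0.10 turned to -0.05 on the spike-in scale. Biliary and progenitor genes had SPP1 called higher and CD24 and SOX9 lower among 12, with a median of -0.21. The calls of SPP1 and SOX9 were lost without 3 and 5 of the single arrays. CD24 fell by 0.83, from 6.24, 6.27 and 6.33 to 5.13, 5.39 and 5.82. Oncofetal liver genes had IGF2BP2 called higher and LIN28B lower among 9; their median of -0.05 became 0.02 with quantile normalization, and the calls were lost without 3 and 4 of the single arrays.

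In each of 5 other signalling pathways, more of the tested genes went uncalled than were called. In the IGF family, 7 of 19 genes were called lower and 2 higher, with a median of -0.33. After the IGFL genes came the binding proteins IGFBP6, which went from 2.68, 2.84 and 2.57 to 0.72, 0.59 and 0.21 and fell by 2.19, IGFBP2 by 0.84 and IGFBP4 by 0.62. IGFBP5, well above background on 1 of the 3 knockdown arrays, was at least 3.07-fold lower, with a change of -0.56 by normexp, and its call ended without replicate 1 or 2 of every condition. IGFBP3 rose by 0.86, and IRS2, a docking protein of the insulin receptor, was called higher. The calls of IGFBP4 and IRS2 were lost without 2 and 5 of the single arrays. The Notch pathway had 6 of 15 called lower and 1 higher, with a median of -0.23. The receptors NOTCH3 and NOTCH4 fell by 1.27 and 1.25 and NOTCH2 by 0.42, the ligand JAG2 by 1.11, and MFNG, which adds sugars to Notch, by 0.79, while HEY1 rose by 0.95, a call lost without the knockdown array of replicate 2. With normexp the changes were -0.64 for NOTCH3, -0.50 for NOTCH4 and 0.35 for HEY1, which was not called. In the Hedgehog pathway, 3 of 9 were called lower and none higher, and the median was -0.15. The ligand IHH went from 3.28, 3.16 and 3.21 to 1.14, 1.45 and 1.78, a fall of 1.76, and GLI2 fell by 1.12. The 3 probes of GLI2 ranged from -1.12 to -0.26, and it was not called with their mean, while the call of GLI1 was lost without 3 of the single arrays.

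The TGF-beta and BMP pathway moved both ways, with 6 of 23 genes called lower and 5 higher and a median of -0.18. Lower were the ligands TGFB1, by 0.50, TGFB2, by 0.83, and INHBB, by 0.83, the protease BMP1, the antagonist NOG, by 0.86, and BMP7. Higher were BMP2, by 0.97, the BMP-induced factors ID1, by 0.74, and ID3, by 0.81, the decoy receptor BAMBI, by 0.76, and SMAD6. The calls of BMP7, BMP1 and SMAD6 were lost without 4, 3 and 3 of the single arrays. On the spike-in scale none of the 5 was called higher, and 1 gene of the list was called lower. YAP and TAZ target genes had 3 called in each direction among 13, with ANKRD1 higher by 1.06 and the coagulation factor gene F3 lower by 1.23. Their median of 0.14 turned to -0.07 on the spike-in scale.

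CDK inhibitors and p53 targets were the list with the most rises, 9 of 18 called higher and none lower, with a median of 0.27. The cell cycle inhibitor CDKN2C went from 2.70, 2.89 and 2.87 to 3.54, 3.50 and 3.53, a rise of 0.70, and CDKN1B, p27, rose by 0.65. BTG2 rose by 0.60, the stress proteins SESN1 and SESN2 by 0.53 and 0.52, CDKN2D by 0.49, and MDM2, the ligase that degrades p53, by 0.47. The 4 probes of MDM2 ranged from -0.0029 to 0.47, and it was not called with their mean. On the spike-in scale the median was 0.065 and none was called. Genes of proliferation were hardly called: TYMS and FEN1 rose among 34 replication genes, whose median was 0.21, and none of 30 mitosis genes was called by limma, where 7 had an unadjusted p under 0.05, with a median of 0.26. The calls of TYMS and FEN1 were lost without 4 and 5 of the single arrays. The 2 medians were 0.0014 and 0.05 on the spike-in scale.

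Interferon-stimulated genes had 8 of 25 called lower and none higher, with a median of -0.27. MX2, an antiviral GTPase, went from -1.55, -1.35 and -1.44 to -3.06, -3.16 and -3.04 and fell by 1.64, OASL by 1.33 and IFI6 by 0.64. On the spike-in scale 2 of the list were called lower. Of 15 inflammatory chemokines and cytokines, CXCL1 fell by 1.30, CXCL3 by 0.74 and IL11 by 1.67, none rose, and the median was -0.12. The call of IL11 was lost without 3 of the single arrays. Of 21 genes of cholesterol and fatty acid synthesis, SCD fell by 0.41 and ACACA by 0.35, with the call of SCD lost without 2 of the single arrays. SREBF1, a master regulator of lipid synthesis, fell by 0.66 on its brightest probe and changed by -0.08 on its other probe. All 21 had a negative change, with a median of -0.23, against -0.44 on the spike-in scale, where none was called.

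Markers of cell types were read in each array as the mean signal of a panel. All 7 hepatocyte markers were well above background on all 6 arrays, and their mean was 2.50, 1.95 and 2.33 on the control arrays and 2.38, 2.87 and 3.27 on the knockdown arrays, with overlap between the groups. The 7 fibroblast and stellate markers, 5 of them well above background on all 6 arrays, went from -1.63, -1.53 and -1.46 to -2.26, -2.16 and -2.12. The 4 called lower were DCN, COL1A1, COL3A1 and DES, already counted in the matrix, collagen and smooth muscle lists. PDGFRB, RGS5 and LRAT were not called. Of 8 macrophage and blood markers, LYZ had no probe under that symbol and HBB was not detected well enough to be tested; the mean of the other 6 went from -2.10, -2.45 and -2.10 to -2.90, -3.19 and -3.20. CSF1R, the receptor of macrophage growth factor, was well above background on 2 of the 3 knockdown arrays and at least 6.49-fold lower, with a change of -1.22 by normexp. CD14 fell by 1.30, and MARCO was called lower, a call lost without 2 of the single arrays. The other tested markers of this panel, PTPRC, CD68 and CD3E, were not called. None of 5 endothelial markers was called by limma, where 2 had an unadjusted p under 0.05, and 1 of the 5 was above background on none of the 6 arrays. Of 5 tested liver progenitor and biliary markers, 2 were called lower and 1 higher. In the longer lists, 3 of 11 endothelial and blood genes were called lower, with a median of -0.04 that became 0.03 with quantile normalization, and 2 of 7 stellate and pericyte genes were, with a median of -0.32. A part of other cell types in the falls of matrix and smooth muscle genes was not tested.

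The same knockdown was also made without Wnt3a, on 6 other arrays. There, 2605 genes (10.6%) were called, 1085 (4.40%) higher and 1520 (6.17%) lower; with the replicate number as a block in the paired model the count was 4095. Both knockdowns called 1566 genes, 60.1% of the list without Wnt3a and a like share of the list with it, all in the same direction. Of these, 854 changed more with Wnt3a. Over all genes the 2 changes had a Pearson correlation of 0.721, a description across genes, which are not independent replicates. Of the 1042 genes called with Wnt3a alone, 987 had the same sign without it. CTNNB1 itself fell by 3.03 without Wnt3a. CYP1A1 was higher by 3.92, NSG1 by 2.74 and CUX2 by 1.33 there, and RGCC changed by -2.53.

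**Figure D4:**
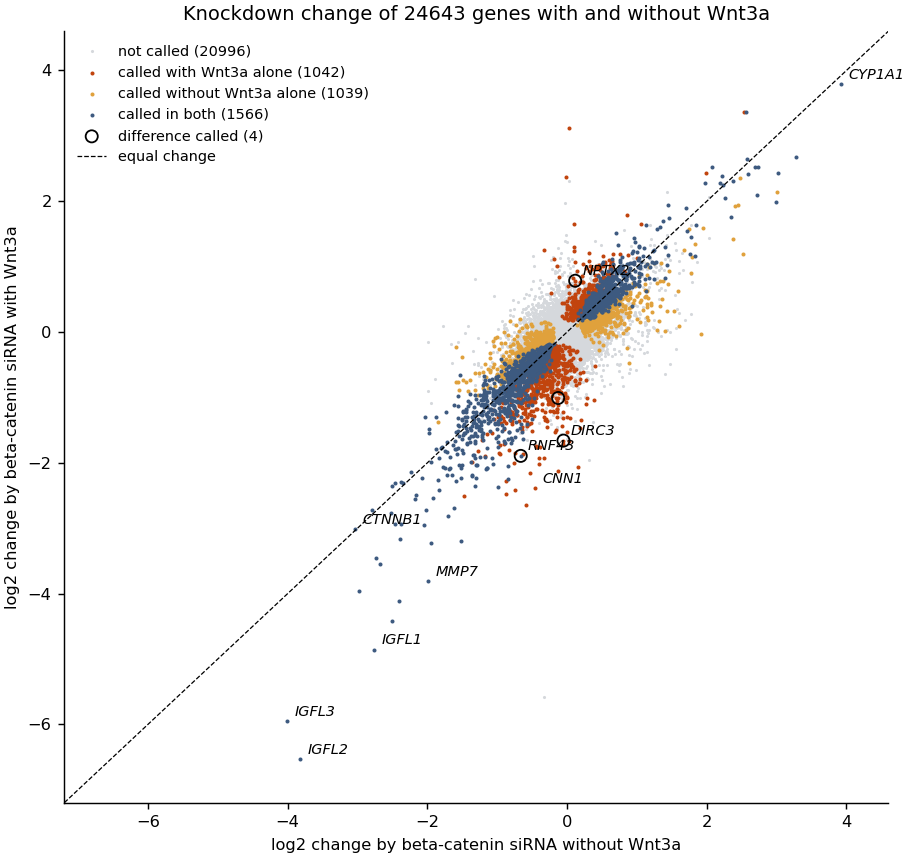
Change of each of 24643 genes by beta-catenin siRNA (log2) without Wnt3a (horizontal) and with it (vertical); colours give the calls, open circles the 4 genes whose 2 changes differ by the interaction test, and the dashed line equal change. The 1566 genes called in both lie in the same quadrants, and MMP7 and the IGFL genes lie under the line.

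The difference between the 2 knockdowns was itself tested as an interaction. It was called for 4 of 24643 genes (0.0162%), while 823 had an unadjusted p under 0.05. RNF43 had signals of 1.00, 1.08 and 0.80 without Wnt3a on the control siRNA arrays, and 0.33, 0.24 and 0.32 with beta-catenin siRNA. Its fall was therefore 0.66 without Wnt3a against 1.89 with it, a difference of -1.23 (adjusted p = 0.0013, larger with Wnt3a in 3 of 3 pairs). The noncoding RNA DIRC3 changed by -0.05 without Wnt3a, and with it was at least 2.61-fold lower (adjusted p = 0.0288, larger in 3 of 3 pairs). NPTX2, a neuronal pentraxin, changed by 0.12 without Wnt3a and rose by 0.78 with it (adjusted p = 0.0056, larger in 3 of 3 pairs). With the replicate block in the paired model the count was 10, and with spike-in scaling it was 0. The difference of DIRC3 lost its call without 10 of the 12 single arrays, those of RNF43 and NPTX2 without none. Omission of replicate 1 or of replicate 2 of every condition ended the calls of all 3, and normexp those of DIRC3 and NPTX2. AXIN2 came next, with a change of 0.12 without Wnt3a and -0.74 with it, a difference of -0.85 that was not called (adjusted p = 0.0519, larger in 3 of 3 pairs), though it was called with the replicate block (adjusted p = 0.0297).

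Larger differences of other genes were not called. IGFL2 changed by -3.82 without Wnt3a and -6.54 with it, IGFL3 by -4.01 and -5.95, and IGFL1 by -2.76 and -4.86, and no difference passed the test. The difference for MMP7 was -1.83 (adjusted p = 0.165, larger with Wnt3a in 3 of 3 pairs), and for EDN1 -1.16 (adjusted p = 0.165, larger in 3 of 3 pairs). That of EDN1 was called with the replicate block (adjusted p = 0.0392). Fibrillar collagens had none of 9 called without Wnt3a and a median of 0.18 there, against 4 and -0.35 with it. COL1A1 changed by 0.18 without Wnt3a and by -1.47 with it, a difference of -1.65 that was not called (adjusted p = 0.712, larger in 3 of 3 pairs). Matrix and fibroblast genes had 10 of 21 called lower without Wnt3a, with a median of -0.67.

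The genes could also be sorted by a measure from other arrays, the response of untransfected cells to Wnt3a. That response was called higher for 738 genes (2.99%) and lower for 643 (2.61%). Of the 738, the knockdown with Wnt3a called 263 lower, or 35.6%, and 19 higher, and the median change was -0.23. Of the 643, it called 104 higher, or 16.2%, and 29 lower, with a median of 0.11. IGFL2 rose by 4.14 with Wnt3a in untransfected cells, LRRC15 by 3.12, PI15 by 3.05 and LINC03033 by 2.95, and these were among the largest falls of the knockdown. SBSN, ACTG2 and PTGDS fell with the knockdown, and their response to Wnt3a, at 0.18, 0.45 and 0.35, was not called. Genes with no called response to Wnt3a made up 94.4% of the genes tested and 81.8% of the falls.

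**Figure D5:**
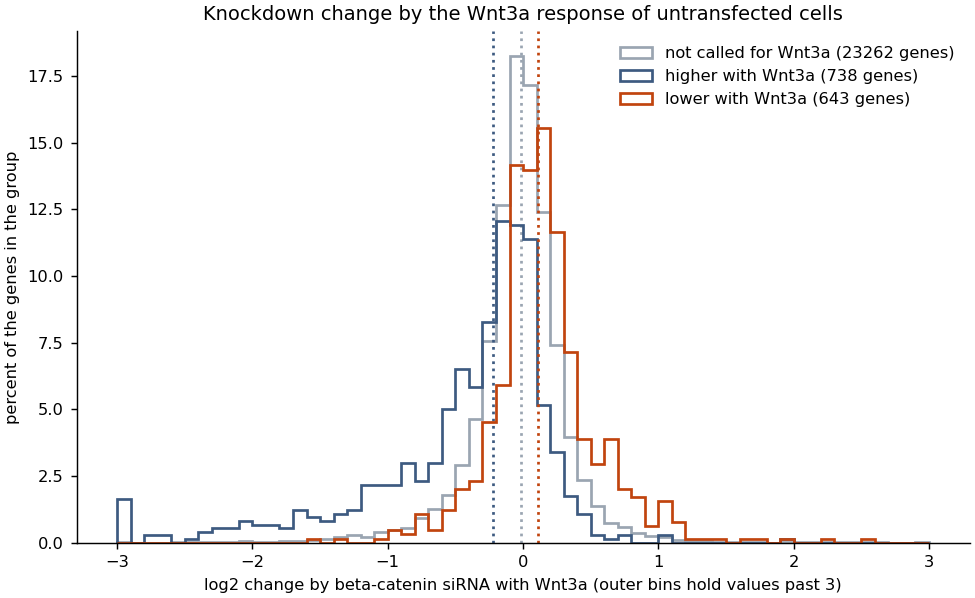
Distribution of the change by beta-catenin siRNA with Wnt3a (log2, bins of 0.1, in percent of each group) for genes whose signal rose, fell or was not called with Wnt3a in untransfected cells; dotted lines are the medians, and the end bins hold all larger changes. The median is -0.23 for the 738 genes that rose with Wnt3a and 0.11 for the 643 that fell, and the left tail is longest for the first group.

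FZD8_CRD, which binds Wnt ligands outside the cell, gave a different set of values for the same genes in untransfected cells with Wnt3a. That comparison called 18.2% of genes higher and 18.9% lower. RNF43 changed by -1.23, NKD2 by -0.98, AXIN2 by -0.84 and MMP7 by -1.74 there, all called lower as after the knockdown. TCF7 changed by 0.15, LEF1 by 0.05 and IGFL2 by -0.01, none of them called, and IGFL1 was higher by 3.50. Whether the 2 treatments differ in these genes was not tested.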

How the data were processed

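Total RNA of 24 HepaRG cultures was measured on one-colour Agilent arrays of 62976 spots. The authors scanned the arrays with Agilent Feature Extraction 10.7.3.1, and the intensity of each spot, corrected for background by that software, was taken from the deposited scanner tables. The authors' own table holds centred log2 values, scaled by the authors to the array's 75th percentile, for 25443 probes, and served as an alternative.

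Here, control spots and outlier spots, as the scanner software marks them, were removed and spots of the same probe averaged. The intensity was divided by the 75th percentile of its array, raised to a floor of 1.43% of that percentile and put on the log2 scale. A probe was kept when some condition had it well above background on its 3 arrays, which left 31061 probes. Symbols are those of RefSeq, and the brightest kept probe stood for each gene. A model of 8 condition means over all 24 arrays was fitted in limma 3.58.1 (R 4.3.3), with empirical Bayes moderation along the mean signal and Benjamini-Hochberg adjusted p. The model fit was tested on simulated data. Tables and plots used Python 3.11.15, numpy 2.4.6, pandas 2.3.3 and matplotlib 3.10.9.

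The named genes were CTNNB1, the 15 largest rises and the 15 largest falls, genes detected in 1 group alone, list members and genes called in the interaction test. The largest changes were taken among genes with a symbol that were called, changed alike in 3 pairs and were well above background on all 6 arrays. DKK1, APCDD1, CDH1 and ACTA2, which were not called, and COL1A1 and EDN1 in the comparison with and without Wnt3a were singled out after their values were seen. The comparison, its genes and the lists were chosen with earlier results of these data known. After subtraction of condition means, the mean correlation of arrays with the same replicate number was 0.384, against -0.191 for other numbers. The 3 pairs compared here had correlations of 0.29 or more. The replicate number was therefore tried as a block. Other alternatives were quantile and spike-in scaling, normexp background correction, the authors' values, other filters and floors, the mean of probes, outlier spots kept, fewer conditions in the model, another call rule, and leaving out arrays. The arrays of the other 4 conditions entered only the model and the comparisons in untransfected cells.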

Additional observations from a re-analysis of the deposited data

Results flagged for a closer look

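For 3 genes named here the change by beta-catenin siRNA with Wnt3a differed from the change without it by the interaction test in limma. The difference was -1.23 for RNF43, -1.61 for DIRC3 and 0.67 for NPTX2 on the log2 scale. On the side with Wnt3a, DIRC3 was detected on the control arrays alone, so its difference rests on signals near background, and under the alternatives it was between -2.15 and -0.29. Each condition had 3 arrays, and single outlying arrays were not tested for in groups of that size. The cause of the differences was not tested.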

How the results depend on the processing

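CTNNB1 was called under every alternative tried, with a change between -3.34 and -2.91. With Wnt3a the count of 2608 became 662 with spike-in scaling, 4019 with only the 4 siRNA conditions in the model and 1593 (431 higher, 1162 lower) under a rule of p below 0.01, unadjusted, with a signal over 1.5-fold higher or less than 0.7 times the control. It ranged from 588 to 2646 when arrays were left out. Without Wnt3a the count of 2605 became 172, 4239 and 1395 under the same 3 alternatives and 4321 with only the 2 conditions compared, and ranged from 473 to 2377 when arrays were left out. The count of 4 for the difference became 0, 41 and 140 under these 3, 1 with normexp and 7 with the mean of the kept probes, and ranged from 0 to 11 when arrays were left out. With the replicate block, in the paired model, the counts were 3845 with Wnt3a, 4095 without it and 10 for the difference; it kept all 2608 calls with Wnt3a and added 1237. Beyond these counts and the differences of AXIN2 and EDN1, it changed no other call given here for the change of a named gene with Wnt3a or for a difference. Of 161 called genes named here, 45 kept their call in every alternative run on them and 111 without each single array, and none changed sign. Spike-in scaling kept 84 of the 161, omission of replicate 1 of every condition 92, of replicate 2 67 and of replicate 3 135. Normexp kept 138 and moved 43 of the 161 changes by over 1.5-fold, all 43 towards 0; quantile normalization kept 155 and the authors' values 142 of 151. Among all 2608, 11 changed sign with spike-in scaling and 2 with the mean of the kept probes. Leaving out arrays leaves fewer samples; otherwise the cause was not tested. Changes of dim probes are limited by signal over background, since their size depends on the floor and on the background correction. The 3 arrays per condition limit the rest, and genes not called here may still differ. A shift shared by all transcripts would show only on the spike-in scale, which rests on 7 spike-in probes that varied between arrays of a condition.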

Other observations

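Of the 2608 genes called with Wnt3a, 490 have no RefSeq symbol. For 639 called genes more than 1 probe was kept, and for 71 of these at least 1 probe changed in the direction opposite to another. Of the 6 arrays, the 75th percentile of intensity lay between 692 and 811 units.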
